A study of Populus tomentosa with 4 samples.

Results

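MiR172 in these data consisted of the 4 names ptc-miR172a, ptc-miR172b-3p, ptc-miR172c and ptc-miR172f (the prefix, for Populus trichocarpa, is dropped below), taken as every listed microRNA whose name begins with ptc-miR172 and a letter, out of 193 names in all. The 4 names carried 1 mature sequence among 107 distinct sequences. Small RNA was sequenced from 2 tissues of Chinese white poplar (Populus tomentosa): healthy shoot tips (SAM in the labels) and the leaves around them. Both came from trees 20 years old that grew outdoors, with 2 libraries of each tissue and no treatment or genotype contrast. A shoot tip holds the apical meristem together with young organs, and the bulk tissue was not divided into cell types, so fewer cells with miR172 and less miR172 per cell cannot be told apart. No messenger RNA was measured, so the tissue labels could not be checked against marker genes, and a target below is a prediction of the authors and not a measured transcript.

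MicroRNAs are short RNAs that guide the silencing of transcripts with a matching site. MiR172 is known from Arabidopsis and maize to repress factors of the APETALA2 branch, which carry a pair of AP2 DNA-binding domains. It acts both by cleavage and by blocking translation. In Arabidopsis it rises as the plant ages, after miR156 falls, and so takes part in the change from juvenile to adult shoots and in the timing of flowering. APETALA2 itself also sets the identity of the outer floral organs.

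The sequence of miR172 in the deposited table is shown with those of miR6457b, whose values lay nearest to it, and of 2 microRNAs whose families shared 4 predicted loci with it. Capitals mark the seed, bases 2 to 8 from the 5′ end.
miR172: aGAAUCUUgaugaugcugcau
miR6457b: uUAGUUUGgcagccucuucuc
miR390a: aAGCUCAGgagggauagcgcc
miR169t: gAGCCAAGaaugacuugccgg
MiR172 was 21 nt long, and 0 of the 106 other listed sequences had its seed. The longest run of bases that any of them shared with miR172 was 6 nt, reached by 12 sequences. In the sequences printed here that run was 4 nt for miR6457b, 3 nt for miR390a and 5 nt for miR169t.

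MiR172 was far lower in shoot tips than in leaves under all 4 names. In the authors' deposited table, ptc-miR172b-3p and ptc-miR172f each had a normalized read abundance of 28.5 in shoot tips and 560.3 in leaves, so leaves were 19.7-fold higher. The authors' deposited table gave both names a log2 fold change, with leaves as the base, of -4.27 and an FDR, an adjusted p, of 1.7e-17. The values of ptc-miR172a and ptc-miR172c stood at 24.9 and 485 in the authors' deposited table, a 19.5-fold difference, with a log2 fold change of -4.26 and an FDR of 4.21e-17. The table held only names with an FDR below 0.05, so 100% of the 193 names passed it and the passing of the 4 names says nothing particular to miR172. Of all listed names 62.2% were lower in shoot tips, and of the 105 names of known families 55.2% were. The median log2 fold change was -2.75 over the 193 names and -4.46 over the 120 lower ones, against -4.27 for miR172, so its fold lay near the middle of the lower names. The labels do not say whether the libraries come from different trees, and these FDR values may measure technical spread.

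The value of a tissue in the table was taken as the mean of its 2 libraries, which is an assumption, since its scale is unstated. If each library adds a whole number of steps of its own, the separate reads of both can be recovered from the decimals. The 2 libraries of a tissue are called A and B here, because which replicate each one is remains unknown. MiR172b-3p and miR172f had 45 reads in shoot tip library A and 18 in library B, or a normalized abundance of 42.8 and 14.2. In leaves they had 493 and 528 reads, or 655 and 466. The higher shoot tip library remained well under the lower leaf library, by 10.9-fold. MiR172a and miR172c had 39 and 16 reads in shoot tips, at 37.1 and 12.6, and 428 and 456 in leaves, at 568 and 402. These are the values under the coarsest steps that fitted; with finer steps that also fitted, single libraries of miR172b-3p lay between 5.60 and 51.4 in shoot tips and between 219.7 and 901 in leaves, which left the tissues apart. Both pairs of names thus gave 1 picture, with shoot tips low in both libraries and no overlap with leaves. Such separation is no mark of miR172, since 62.9% of the 170 names recovered in both tissues were lower without overlap and 37.1% were higher without overlap.

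The size of the fold, though not its direction, depended on the shoot tip library and on the steps used to recover it. With the coarsest steps, leaves were 13.1-fold above shoot tip library A alone and 39.5-fold above library B alone for miR172b-3p. Leaving out a leaf library in the same way gave 16.3-fold and 23.0-fold. The ratio of library A to B in shoot tips was 3.02, with an exact 95% counting interval of 1.72 to 5.55, so under those steps the libraries differed beyond counting error. In leaves the ratio was 1.41, with an interval of 1.24 to 1.59. Of the 37 other known sequences with at least 20 shoot tip reads and reads in both libraries, 35 were also higher in library A. Their median fold was 1.61, so part of the gap was shared with other sequences. Every whole combination of the coarsest steps is also one of the finer steps, so the finer pairs fitted by construction. Of these, the whole divisions of the coarsest steps gave the same libraries, and the 3 others in shoot tips gave 25.1 and 31.9, 8.46 and 48.5, or 51.4 and 5.60. The first of them makes the shoot tip libraries nearly equal, and the rest set them further apart than the coarsest steps do. The size of the gap between the libraries therefore depends on the steps. The counting intervals cover counting error alone, since reads without molecular identifiers are not independent molecules.

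**Figure D1:**
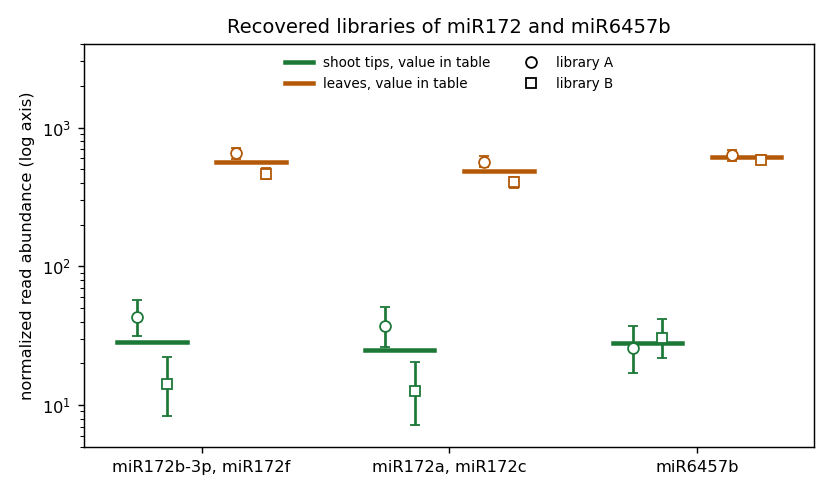
Normalized read abundance on a log axis for the names of miR172 and for miR6457b, with shoot tips in green and leaves in orange. Circles and squares are libraries A and B with exact 95% counting intervals, and thick lines are the values in the table. MiR172b-3p reads 42.8 and 14.2 in the shoot tip libraries and 655 and 466 in the leaf libraries, while the shoot tip libraries of miR6457b lie close together; all libraries are drawn for the coarsest steps that fitted.

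The 2 pairs of names had unequal values in spite of their shared sequence. In shoot tips the value of miR172a was 87.2% of that of miR172b-3p, and in leaves it was 86.6%. Per library, miR172a had 86.7% and 88.9% of the reads of miR172b-3p in shoot tips and 86.8% and 86.4% in leaves, so the share was nearly the same in all 4 libraries. MiR172b-3p had 6 and 2 reads more than miR172a in the shoot tip libraries and 65 and 72 more in the leaf libraries. How reads were assigned to names is not given in the sources used here, so the 4 names cannot be read as 4 measurements, and the locus that made the reads is unknown.

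MiR172 was a leaf microRNA of middle abundance. Among the 52 known sequences, each taken at its highest leaf value, it ranked 18th by leaf value and 39th by shoot tip value. Its log2 fold change was the 14th lowest of the 33 known sequences that were lower in shoot tips. The known sequences nearest to it over both tissues, by the distance of log2(value + 1), were miR6457b at 0.12, miR530b at 0.76, miR473a-3p at 1.33, miR393c at 2.06 and miR171l-5p at 2.25. With 2 tissues this likeness rests on 2 values for each sequence.

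MiR6457b, a poplar microRNA, was close to miR172 in level in both tissues. It had 28.2 in shoot tips and 608 in leaves in the authors' deposited table, with a log2 fold change of -4.40. With the coarsest steps its shoot tip libraries stood at 25.7 and 30.7 from 27 and 39 reads, a ratio of 0.84 with a counting interval of 0.49 to 1.40, where miR172b-3p had 3.02. With the finer steps that put miR172b-3p at 25.1 and 31.9, which fitted by construction, miR6457b had 15.1 and 41.3. Which microRNA had the closer libraries thus depends on the steps. The authors' deposited table gave miR6457b an FDR of 1.04e-28, against 1.7e-17 for miR172b-3p. Next in order, miR530b had 42.4 and 392 in the authors' deposited table, a smaller difference with a log2 fold change of -3.19.

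**Figure D2:**
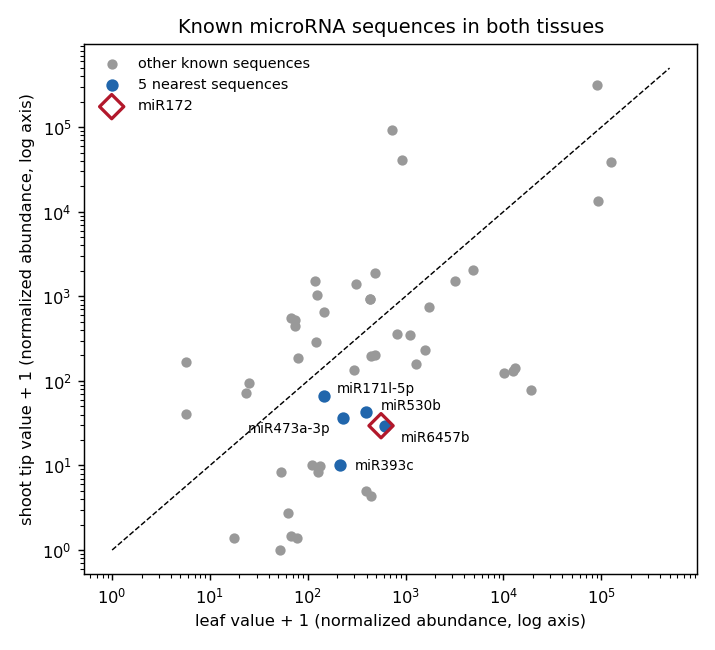
Shoot tip value against leaf value for each known sequence, both with 1 added and on log axes; the dashed line marks equal values. MiR172 (open diamond) lies well below the line with miR6457b inside its marker, and the 5 nearest sequences are labelled.

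The partners of miR172 in phase change were missing from the list, while microRNAs of leaf growth and of the meristem lay on both sides. No name of miR156 or miR157, which in Arabidopsis repress SPL factors that in turn promote miR172, was in the table, which holds only names called different, so their levels are not known. Among leaf growth families, all 7 names of miR396, which targets growth-regulating factors, were lower in shoot tips as miR172 was, with a median log2 fold change of -1.70. All 9 names of miR319, which targets TCP factors, and all 5 of miR159, which targets GAMYB-type factors, were higher, with medians of 6.77 and 1.93. Of the boundary and meristem families, miR164, which targets NAC factors, was lower in all 5 names with a median of -2.96. The 2 names of miR394, known to keep stem cell competence in Arabidopsis, were higher with a median of 3.78, and miR171 was higher in 7 names and lower in 1. MiR172, at a median of -4.27, had the lowest value of the families on these lists that were present.

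The predicted targets of miR172 held every APETALA2-type locus of the table. Each of the 4 names had the same 154 distinct loci, named by P. trichocarpa-style identifiers, of 10305 in the whole table. Of these, 4 were described as the floral homeotic protein APETALA 2, namely POPTR_0005s18400, POPTR_0007s10780, POPTR_0008s04490 and POPTR_0016s08530. A further 2, POPTR_0006s13460 and POPTR_0010s22320, were described as RAP2-7, also known as TOE1, a flowering repressor and miR172 target in Arabidopsis. These 6 made up 3.9% of the loci of miR172 and 0% of the loci without a miR172 prediction. The table lists only loci predicted for a listed microRNA, and the 6 leave out the AP2-like loci given below. This contrast therefore follows in part from how the loci were listed and counted. All 6 were predicted for miR172 alone, with no other known family and no numbered microRNA, the name used here for entries that carry only a running number. The same held for 99 of the 148 other loci of miR172, and for 68.2% of all 154. The lines of POPTR_0005s18400 and POPTR_0007s10780 were repeated under each name, as were those of 2 other loci, and the table does not say what a repeated line means.

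Relatives of APETALA2 outside its own branch were predicted for other microRNAs and not for miR172. The table held 8 loci described as other AP2-like factors, such as AINTEGUMENTA (ANT), which in Arabidopsis has no miR172 site. Of the 8, 0 were predicted for miR172. They made up 0.08% of the loci without a miR172 prediction, or 0.12 locus of 154, so the list is too small for the 0 to be read. Any locus of the table without a miR172 prediction is by construction predicted for another microRNA. The pair described as ANT, a promoter of organ growth, POPTR_0007s14690 and POPTR_0014s01260, was predicted for miR6457b, the microRNA nearest to miR172 in level. The 2 loci described as At1g16060 were predicted for miR396g-5p, which was likewise lower in shoot tips. POPTR_0006s04820, described as At2g41710, was predicted for miR1446, which was higher in shoot tips. PLT1, PLT2 and AIL5, root and shoot meristem factors in Arabidopsis, made up the rest, with miR530b or numbered microRNAs as their predicted regulators.

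Single-domain AP2/ERF factors formed a small second group of 3 loci. POPTR_0008s07120 and POPTR_0010s19370 were described as ABI4, a factor of abscisic acid and sugar responses, and both were also predicted for miR160, a family known to target auxin response factors. MiR160 was higher in shoot tips, with log2 fold changes from 1.22 to 1.27 in the authors' deposited table, so these 2 loci had predicted regulators with opposite tissue preference. POPTR_0018s13130 was described as WIN1, an activator of wax and cutin formation, and had no other predicted regulator.

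Other transcription factors numbered 19 loci, or 12.3% of the predicted targets. In order of identifier they began with TCP4 at POPTR_0001s38480, a factor that ends cell proliferation in leaves, GTL1 at POPTR_0001s45870, a trihelix factor, ATHB-15 at POPTR_0003s04860, a class III homeodomain factor of vascular and meristem patterning, and MYB86 at POPTR_0003s15440. TCP4 was also predicted for miR319 and miR159, both higher in shoot tips, and ATHB-15 for miR6421 and miR6459. Other loci, chosen after their descriptions were seen, have known roles in flowering or growth. They include cyclic dof factors 2 and 3 at POPTR_0017s12080 and POPTR_0004s12120, which repress CONSTANS in Arabidopsis, and bHLH63 at POPTR_0009s12000, a partner of cryptochrome. The DELLA protein GAI at POPTR_0005s14540, a repressor of gibberellin responses, belongs with them, as do 2 loci of the cell cycle factor E2FB, POPTR_0004s21100 and POPTR_0009s16350.

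The remaining described loci were spread over many functions. Receptor-like kinases numbered 10, 5 of them of the G-type lectin kind, and other protein kinases 9, among them EDR1 at POPTR_0001s14270, which limits defence responses, and the shaggy-related kinase eta at POPTR_0004s05770, a repressor of brassinosteroid signalling also known as BIN2. Transporters and channels numbered 12, such as the metal transporter Nramp6 at POPTR_0001s03650. Chromatin and DNA methylation proteins numbered 4, with the demethylase JMJ14 at POPTR_0003s12670, chromatin remodelling protein 8 at POPTR_0005s24820, SUVR2 at POPTR_0014s18780 and DNA methyltransferase 1 at POPTR_0019s00240. Another 4 loci were UPF0481 proteins, of unknown function, 3 of them with consecutive identifiers from POPTR_0003s18000 to POPTR_0003s18020. The description was missing for 37 loci, or 24.0%, against 20.8% in the whole table.

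**Figure D3:**
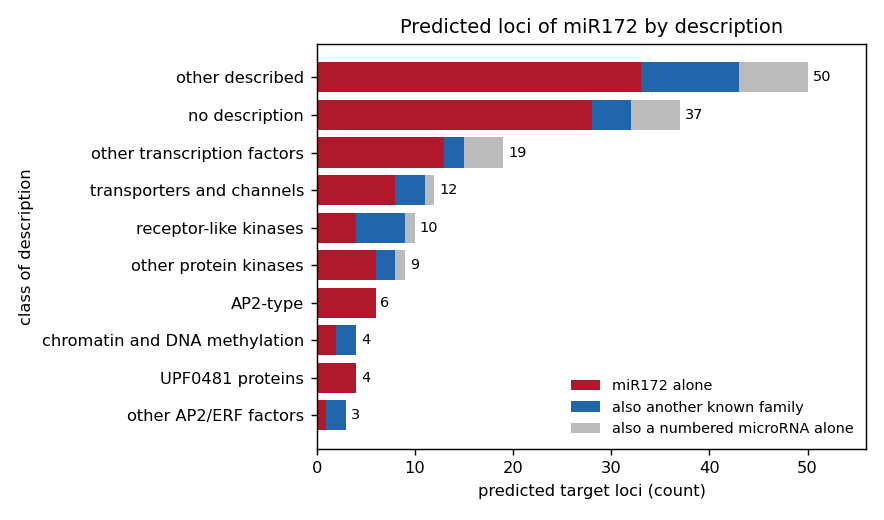
Number of predicted target loci of miR172 in each class of description, split into loci predicted for miR172 alone (red), also for another known family (blue) and otherwise also for a numbered microRNA (grey). The 6 AP2-type loci are red throughout, whereas receptor-like kinases have 5 of 10 loci shared with another known family.

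Wider lists of pathway genes were drawn up from words in the descriptions, which leave out some loci of the same roles. The phase change and flowering list had 47 loci in the table, 16 of them SPL factors, and 0 were predicted for miR172. Its words do not cover RAP2-7, the cyclic dof factors or bHLH63, which are targets with roles in flowering, so the 0 holds for the listed words alone. The meristem and organ identity list, with 18 loci, and the small RNA list, with 13, also had 0, and the former does not cover APETALA 2 or ATHB-15. These lists are too small for a count of 0 to be read, since they made up 0.46%, 0.18% and 0.13% of the other loci, or under 1 locus of 154. Of the 16 SPL loci, 5 had a known family as predicted regulator, namely miR159, miR171, miR396 or miR1444. The hormone list had 5 of its 106 loci among the targets, or 3.25% of the targets of miR172 against 0.99% of the other loci. All 5 entered through the word ethylene in the descriptions of RAP2-7, ABI4 and WIN1, and GAI, the kinase eta and the strigolactone esterase DAD2 at POPTR_0002s11970 are targets of hormone pathways that its words do not cover. The chloroplast and photosynthesis list had 3 loci, or 1.95% of the targets of miR172 against 6.47% of the other loci. They were the chaperone dnaJ 8 at POPTR_0001s03470, the outer envelope pore protein 24 at POPTR_0007s12590 and the polyribonucleotide nucleotidyltransferase 1 at POPTR_0013s06180. The words of that list do not cover the 2 targets described as Protein Ycf2, so its share holds for the listed words alone. The xylem and lignin list had 1, the laccase-3 locus POPTR_0013s14890, which was also predicted for miR408, a family known to target copper proteins.

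Of the 154 loci, 30 were also predicted for another known family, or 19.5%. That share was close to the median of 22.1% over the 30 known families and ranked 7th from the lowest, between 14.8% for miR164 and 50.5% for miR319. The 30 loci were spread over 18 families, none of which shared more than 4 with miR172. MiR159, miR169 and miR390 shared 4 each, which was 2.6% of the loci of miR172 and 0.79%, 1.87% and 2.21% of their own. MiR319, miR408 and miR6462 shared 3 each.

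The families that shared loci with miR172 had either tissue preference. In 6 families every name was higher in shoot tips, in 11 every name was lower, and miR171 had names in both directions. Counted by locus, 14 were shared only with names higher in shoot tips, 13 only with names lower there as miR172 was, and 3 with names of both kinds. The 3 were ATHB-15, a probable kinase described as At1g54610 at POPTR_0005s04700 and methyltransferase-like protein 1 at POPTR_0015s12820, the last 2 predicted for both miR390 and miR6462. MiR390, which triggers small RNAs that silence auxin response factors, had log2 fold changes from 2.15 to 2.16, and miR6462 had -2.75, in the authors' deposited table. A further 3 loci had 2 other known families of 1 direction. They were TCP4, the G-type lectin kinase B120 at POPTR_0017s09150, predicted for miR159 and miR319, and LysM domain receptor-like kinase 3 at POPTR_0008s03720, predicted for miR408 and miR6427. The direction of a microRNA says nothing of its targets, which were not measured.

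**Figure D4:**
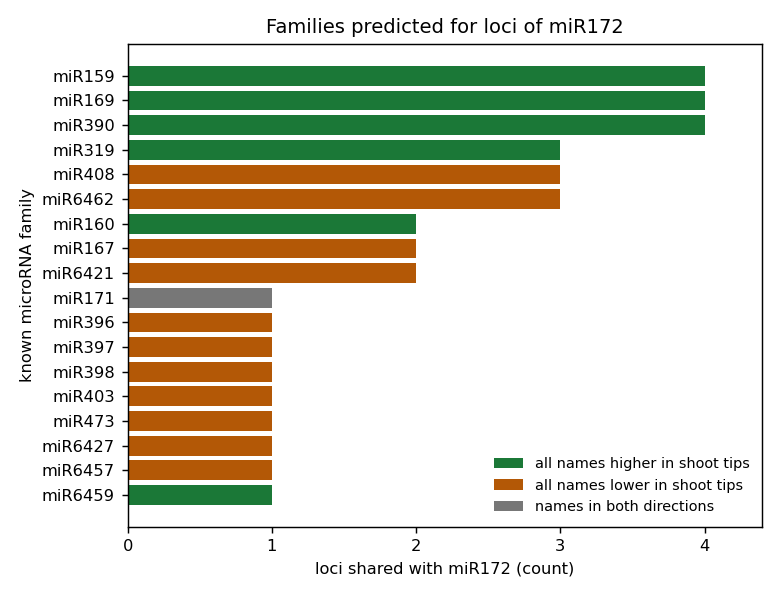
Number of loci of miR172 that were also predicted for each of 18 known families, coloured by whether all listed names of the family were higher (green) or lower (orange) in shoot tips, or had both directions (grey). The longest bars, at 4 loci, are miR159, miR169 and miR390, all higher in shoot tips.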

How the data were processed

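Per the labels' protocols, libraries followed the standard Illumina procedure from Trizol-extracted total RNA. How the authors trimmed, aligned, counted and scaled reads, predicted targets and tested tissues is not stated in the labels or file header. The authors deposited 1 signal per microRNA and tissue, a normalized read abundance of unstated scale, a log2 fold change and an FDR, an adjusted p-value, with predicted targets in 27252 lines. Each name was read once. The planned count test needed values per library, so no test was added to the authors' FDR, and 0.05 was its threshold.

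Reads of single libraries were recovered by writing a signal up to 5000 as whole multiples of 2 steps between 0.15 and 1.5, taken as the mean of 2 libraries. A solution within 1.2 times the rounding error (plus the error of the steps) was kept if its closest rival was 10 or more times as far away. This gave 101 of 101 distinct shoot tip values and 106 of 107 leaf values. The coarsest of 9 and 12 fitting pairs of steps was used; if the signal is RPM, it puts the libraries at 1050682 and 1270332 reads in shoot tips and 752959 and 1133180 in leaves. On data simulated for both tissues, 97 of 97 kept shoot tip solutions and 103 of 103 leaf solutions were right. These counts give no separate result on the choice among the fitting pairs of steps.

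Loci were grouped by words in their descriptions; 0 of the 154 identifiers matched the reference gene table. Members, lists and classes were chosen with earlier results of these data known. The text names all AP2-type loci, loci with 2 or more other known families, loci of the lists, and from 1 to 4 examples of classes with 3 or more loci in order of identifier; other named loci were chosen after their descriptions were seen. Alternatives were another fold measure, a pseudocount of 1, another total, left-out libraries, another FDR and other description rules. Python 3.11.15, numpy 2.4.6, scipy 1.17.1, pandas 2.3.3 and matplotlib 3.10.9 were used.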

Additional observations from a re-analysis of the deposited data

How the results depend on the processing

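The fall of miR172 in shoot tips kept its direction under every alternative run. For miR172b-3p the log2 fold change of -4.27 became -4.30 as the plain ratio and -4.25 with a pseudocount of 1. It became -3.54 without miR159 and miR319 in the total, which raises all other microRNAs by 0.73 if the signal is RPM. Leaving out 1 recovered library gave -5.31 to -3.71, and -5.27 to -3.71 for miR172a. Of the finer steps that also fitted, those that are no whole division of the coarsest, 3 pairs in shoot tips and 4 in leaves, gave other library values, and across all pairs the lowest leaf library was still 4.27-fold above the highest shoot tip library. Over all fitting pairs, a check chosen after seeing the data, the pooled leaf value was at lowest 10.9-fold above a single shoot tip library. An FDR below 0.01 retained 4 of 4 names, and counting sequences gave 1 in place of 4 by construction. The AP2-type loci were 4 without RAP2-7 and 9 with all ethylene-responsive factors, against 6. Loci shared with other microRNAs rose from 30 to 49 when numbered ones were counted. No paired analysis was possible because neither recovered library of a tissue can be matched to a replicate number. The planned count models and filters were left out, as they need numbered libraries and microRNAs not selected by FDR. With 63 shoot tip reads of miR172b-3p in both libraries, depth limits its fold more than the 1021 leaf reads do.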

Other observations

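With the coarsest steps, miR172 had the highest ratio of shoot tip library A to library B among the 38 known sequences with reads in both libraries, at least 20 reads in all and a recoverable value. Its log2 ratio was 1.60, the median of the other 37 was 0.69, and 35 of these were also higher in library A. In leaves the log2 ratio of miR172 was 0.49, the 10th highest of 42, against a median of 0.12. Without the minimum of 20 reads miR172 ranked 2nd of 42 in shoot tips. Some finer steps kept the shoot tip libraries of miR172b-3p at 42.8 and 14.2, and others set them at 48.5 and 8.46 or at 51.4 and 5.60. Only the finer steps of 0.279 and 0.197 turned miR172b-3p to 25.1 in the first library and 31.9 in the second. With these it ranked 4th of 42. The finer steps fitted by construction, so their fit is no evidence for them. The direction of the miR172 ratio still depends on the steps. These are descriptions without a test.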
